A study of Homo sapiens with 12 samples.

Results

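The comparison described here set IMR90 fibroblasts cultured on a soft gel of 2 kPa against the same line on plastic, both after 100 nM doxorubicin. Its libraries were chosen by their titles, 3 for each substrate, which made 6 of the 12 libraries in the series. IMR90 is an established, wild-type line of human fetal lung fibroblasts, and doxorubicin is an anthracycline that breaks DNA and drives cultured fibroblasts into senescence. Every group received the drug for 24 h and was then kept in culture for at least 8 days, and the remaining 6 libraries held the same substrates after 250 nM. The titles state the doses in nM and speak of a hydrogel, whereas the protocols give these doses in µM and speak of PDMS-coated plates. The title's wording is used below. The line is 1 cell source, no library without the drug was analysed here, and the labels do not say whether replicates were separate cultures. P-values therefore measured the spread between these libraries, which may be technical, and a change is always gel relative to plastic among treated cells.

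Senescent cells leave the cell cycle for good and release a mixture of cytokines, proteases, growth factors and matrix proteins known as the senescence-associated secretory phenotype. Fibroblasts are the main producers of fibrillar collagen in the lung. They sense the stiffness of what they adhere to through integrins, actin tension and membrane pits called caveolae, and stiff plastic is known to favour contractile, matrix-producing fibroblasts. The series title places the comparison in the question of how substrate stiffness shapes the secretions and transcripts of senescent fibroblasts.

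The 6 libraries held 5887056 to 7351916 expected counts, the fractional read numbers that RSEM assigns to genes. Levels below are CPM, counts scaled to a common library size, which can be compared for a gene between libraries but not between genes. All 12 fibroblast markers were expressed, with a summed level of 10618 to 12200 CPM on plastic and 9237 to 12288 on gel, of which FN1 and VIM made up the most. Beneath that sum 5 of the 12, all of them collagen or proteoglycan genes described below, were called lower on gel and 0 higher, 10 were below 0, and the median log2 change was -0.91. None of 14 leukocyte markers passed the expression filter, and 9 of them were at 0 in all 6 libraries. The summed endothelial markers were 24.8 to 39.1 CPM on plastic and 10.6 to 17.96 on gel, with PECAM1 and CLDN5 at 0 throughout. The most abundant of them, TEK, was not called. Summed epithelial markers (59.2 to 117.9 against 47.2 to 120.0 CPM) and pericyte markers (154 to 225 against 131 to 189.6 CPM) overlapped between the substrates. Loci in the ribosomal DNA region of chromosome 21 took 14.3% of counts in plastic replicate 1 and 24.7% to 30.7% in the other 5 libraries. In principal components of these 6 libraries, the first held 39.8% of the variance and placed plastic replicate 1 at one end and gel replicate 1 at the other. Plastic replicate 3 correlated across genes about as well with the gel libraries (mean r 0.946) as with its own group (0.943). The part of the endothelial markers and of the ribosomal DNA share in the results was not tested, except that a fit without the ribosomal DNA loci and the mitochondrially encoded genes called 26 genes, all among the 27 described next.

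On gel, fibroblasts held less messenger RNA for the collagen chains COL1A1, COL1A2 and COL3A1, for DCN and LUM, small proteoglycans that coat collagen fibrils, and for SERPINH1 and LOXL2, which fold and cross-link collagen. They held more for the collagenase MMP1, for the secreted hormone STC1 and for the carriers SLC20A1, SLC6A15 and SLC16A6. Of 12329 genes tested by edgeR's quasi-likelihood test, 27 were called at a Benjamini-Hochberg adjusted p under 0.05, which is 0.219% of them. There were 19 lower on gel (0.154%) and 8 higher (0.0649%), with folds of 1.95 to 18.6 among the lower and 2.16 to 7.81 among the higher. In 2343 genes (19.0%) the 3 gel libraries did not overlap the 3 plastic libraries, 9.62% with gel higher and 9.38% with gel lower, and all 27 called genes were among them. At an unadjusted p under 0.05 there were 1216 genes (9.86%), with 484 higher (3.93%) and 732 lower (5.94%). The number of calls depended on the libraries. It was 8, 5 and 12 without plastic replicate 1, 2 or 3, and 11, 11 and 7 without gel replicate 1, 2 or 3. Among the 250 nM libraries, leaving out plastic replicate 2 gave 17 and leaving out gel replicate 1 gave 119, and the cause was not tested. MMP1, COL1A1, LUM and DCN were called under all 27 settings tried. With each of the 6 libraries at 100 nM left out in turn, these 4 and LBH were called all 6 times, STC1 4 times, CAV1 3 times and CEMIP 2 times. Another 10 genes, COL1A2, COL3A1, SPARC, LMCD1, CCL2, GALNT15, SLC20A1, SLC6A15, SLC16A6 and a noncoding RNA, were called in 1 of the 6 fits. The remaining 9, SERPINH1, LOXL2, IGFBP5, GFRA1, GPRC5A, NREP, CCN4, SAT1 and SH3TC2, were called in 0 of them.

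**Figure D1:**
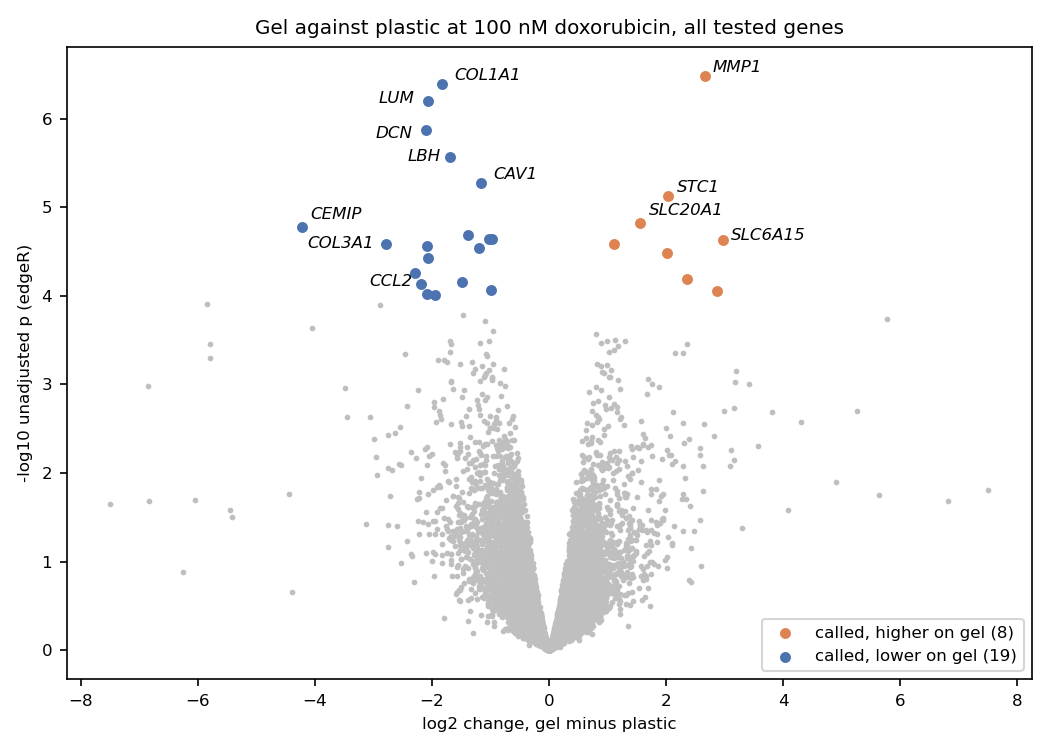
Each point is 1 of the 12329 tested genes, with the log2 change of gel relative to plastic at 100 nM on the horizontal axis and −log10 of the unadjusted edgeR p on the vertical axis. The 19 genes called lower are blue and the 8 called higher are orange, with MMP1 and COL1A1 at the top.

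Among the fibrillar collagen genes, 3 of 8 tested chains (of 9 listed) fell and 0 rose, 7 of 8 had a log2 change below 0, and the median log2 change was -1.35. Over all tested genes the median was -0.01 and 6301 of 12329 lay below 0. COL1A1 (chr17:50183289-50201632, GRCh38, minus strand) encodes the α1 chain of type I collagen, the main protein of lung interstitium and scar. It stood at 1792, 1804 and 1665 CPM in plastic replicates 1, 2 and 3 and at 452, 569 and 454 CPM in the gel replicates. Every gel library was far below every plastic library, a log2 change of -1.83 ± 0.21 (SE) with an adjusted p of 0.00251. COL1A2 (chr7:94394561-94431232, plus strand), its α2 partner in the same trimer, read 1012, 1239 and 1253 CPM on plastic against 380, 518 and 442 on gel. It fell by 1.39 ± 0.22 on the log2 scale, with an adjusted p of 0.0208. COL3A1 (chr2:188974320-189012746, plus strand) encodes type III collagen, which forms mixed fibrils with type I. Its levels were 143, 145 and 189 CPM on plastic and 34.8, 23.2 and 11.6 on gel. The log2 change was the largest of the 3 at -2.78 ± 0.44, with an adjusted p of 0.0208, and the gel libraries were more spread than the plastic ones. Per transcript length, mean plastic levels were 326 TPM for COL1A1, 373 for COL1A2 and 66.6 for COL3A1, and on gel they were 92.8, 181 and 11.7 TPM.

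COL5A2, a chain of the type V collagen that nucleates fibrils, also did not overlap. Its plastic libraries read 142, 183 and 265 CPM and its gel libraries 104, 74.2 and 60.7, but it did not pass the test (log2 change -1.31, adjusted p 0.117). COL12A1, a collagen on the surface of fibrils, overlapped, since gel replicate 1 at 246 CPM lay beside plastic replicate 1 at 247. The list of fibril-associated and beaded collagens had 0 of 7 tested members called and 6 of 7 log2 changes below 0, with a median of -0.34. Of 13 tested genes of elastic fibres 0 were called, and EFEMP1, a fibulin, read 34.96, 39.2 and 18.8 CPM against 6.53, 12.8 and 16.4 without overlap (adjusted p 0.216). In the basement membrane list 0 of 14 were called and 8 of 14 were below 0, with a median of -0.07.

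Of 20 tested genes of collagen folding, trimming and cross-linking, 2 fell, 0 rose and 16 had a log2 change below 0, with a median of -0.28. SERPINH1 (chr11:75562056-75572783, plus strand), the chaperone HSP47 that binds procollagen in the endoplasmic reticulum, read 131, 140 and 112 CPM on plastic and 49.7, 73.1 and 68.4 on gel. All 3 gel values were below the lowest plastic value, with a log2 change of -0.999 ± 0.18 and an adjusted p of 0.043. LOXL2, a lysyl oxidase that cross-links collagen, read 550, 446 and 448 CPM on plastic against 224, 254 and 236 on gel. The groups were tight and apart, with a log2 change of -1.02 ± 0.16 and an adjusted p of 0.0208. With single libraries left out, the adjusted p was 0.0671 to 0.226 for SERPINH1 and 0.0512 to 0.156 for LOXL2, and with the replicate number as a block it was 0.164 and 0.122. The LOXL2 locus overlaps 2 tested genes, ENTPD4 (37.8 CPM) and the antisense gene LOXL2-AS1 (2.68 CPM). The strand setting of the counting is not given, so reads of these genes and LOXL2 may be mixed. LOX, the founding member of that enzyme family, read 802, 688 and 548 CPM on plastic and 169, 391 and 306 on gel, without overlap but with an adjusted p of 0.169. ADAMTS2, the protease that removes the amino-terminal propeptide of procollagen, also kept the groups apart (22.5 to 29.8 CPM against 12.7 to 17.9) at an adjusted p of 0.264.

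Both of the leucine-rich proteoglycans that passed the test fell, while the other tested member, BGN, overlapped between the groups, and 7 of 10 listed members were too low to be tested. DCN (chr12:91140484-91183123, minus strand) encodes decorin, which binds collagen fibrils and sets their diameter. It read 334, 501 and 437 CPM on plastic and 89.4, 130.5 and 75.7 on gel. The lowest plastic library was far above the highest gel library, with a log2 change of -2.10 ± 0.26 and an adjusted p of 0.00415. LUM (chr12:91102629-91111831, minus strand), the neighbouring gene of lumican, read 76.1, 94.6 and 70.3 CPM on plastic against 18.7, 25.02 and 13.97 on gel. Its log2 change was -2.06 ± 0.24 with an adjusted p of 0.00257. BGN, the gene of biglycan, stood at 3.56 to 3.64 CPM on plastic and 2.54 to 3.99 on gel.

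The fibronectin and matricellular genes, which encode matrix proteins and proteins that modulate contact between cells and matrix, had 2 of 15 tested members called lower, 0 higher and 10 below 0, with a median log2 change of -0.58. SPARC (chr5:151661096-151687165, minus strand), a collagen-binding glycoprotein, read 982, 1028 and 806 CPM on plastic and 310, 484 and 442 on gel. It fell by 1.19 ± 0.20 on the log2 scale with an adjusted p of 0.0208. CCN4, a secreted target of WNT signalling, read 32.0, 15.9 and 28.3 CPM on plastic and 8.89, 4.67 and 6.27 on gel. The groups did not overlap, plastic replicate 2 was the nearest to gel, and the log2 change was -1.95 ± 0.36 with an adjusted p of 0.045. CTHRC1, a secreted protein of healing and fibrotic tissue, read 404, 268 and 191 CPM on plastic and 116, 94.6 and 67.6 on gel, apart with an adjusted p of 0.143. POSTN, the gene of periostin, separated in the same direction (29.1, 36.1 and 45.3 CPM against 16.9, 10.9 and 6.56) with an adjusted p of 0.0967. FN1, the gene of fibronectin, did not pass the test. Its plastic libraries read 4907, 4518 and 4708 CPM and its gel libraries 4836, 6817 and 8197, so gel replicate 1 lay inside the plastic range (log2 change 0.49 ± 0.22, adjusted p 0.495).

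CEMIP (chr15:80779343-80951776, plus strand), which encodes a protein needed to break down hyaluronan, had the largest fold of the called genes. Its plastic libraries held 127, 50 and 70 counts (16.9, 7.74 and 11.1 CPM) and its gel libraries 6, 6 and 0 counts, a log2 change of -4.22 ± 0.66 with an adjusted p of 0.0208. A count of 0 allows up to 3 counts at that depth. Without gel replicate 3, which held none, the log2 change was -3.62 with an adjusted p of 0.0485, and the fold is uncertain at these counts. The call was lost without plastic replicate 1, 2 or 3 (adjusted p 0.0916, 0.0613 and 0.0512), without gel replicate 2 (0.0651) and with the block (0.0948). A tested gene on the other strand, MESD, overlaps this locus. The remaining 8 tested hyaluronan genes were not called. GALNT15, which starts O-linked sugar chains on secreted proteins, read 18.7, 24.5 and 20.3 CPM on plastic and 2.18, 7.84 and 3.71 on gel. It fell by 2.18 ± 0.39 on the log2 scale, with an adjusted p of 0.0396, and by 2.82 without gel replicate 2, its highest gel library (adjusted p 0.0149). Without any of the other 5 libraries it was not called (adjusted p 0.0888 to 0.26), nor with the block (0.0948).

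Of 17 listed matrix metalloproteinases, the enzymes that cut matrix proteins, 6 were tested, 1 rose and 0 fell, with a median log2 change of 0.64. MMP1 (chr11:102789920-102798160, minus strand), the interstitial collagenase, read 75.5, 64.0 and 42.9 CPM on plastic against 554, 264 and 334 on gel. The lowest gel library was far above the highest plastic one, with a log2 change of 2.66 ± 0.30 and an adjusted p of 0.00251. Without gel replicate 1, the highest, the change was 2.30 with an adjusted p of 0.00856. MMP3 (chr11:102835801-102843803, minus strand), the neighbouring stromelysin gene that activates procollagenase, had a larger fold than MMP1 but missed the threshold. It held 17, 3 and 3 counts on plastic (2.27, 0.465 and 0.475 CPM) and 851, 82 and 154 counts on gel (154, 11.3 and 22.0 CPM). The groups were apart, but gel replicate 1 was far above the next library, and the adjusted p was 0.0725 with a log2 change of 5.77 ± 1.08. Without robust moderation of the spread the same fit gave MMP3 an adjusted p of 0.0332. MMP16, a membrane-bound member, also did not overlap (20.3 to 30.7 CPM against 39.0 to 60.0) at an adjusted p of 0.186. The 3 remaining tested members overlapped between the substrates.

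Among 15 tested protease inhibitors and plasminogen genes 0 were called, 8 were below 0 and the median was -0.05. In 3 of them (20%, against 19.0% of all tested genes) the groups did not overlap, each with gel higher. TFPI2, an inhibitor of plasmin and trypsin that fibroblasts deposit in matrix, read 79.9, 58.4 and 24.5 CPM on plastic and 413, 140 and 172 on gel (adjusted p 0.106). SERPINB2, an inhibitor of urokinase, read 66.7, 74.0 and 39.7 CPM against 138, 134 and 132, with the gel libraries close together and an adjusted p of 0.186. TIMP1, an inhibitor of metalloproteinases, overlapped (log2 change 0.22, adjusted p 0.811).

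**Figure D2:**
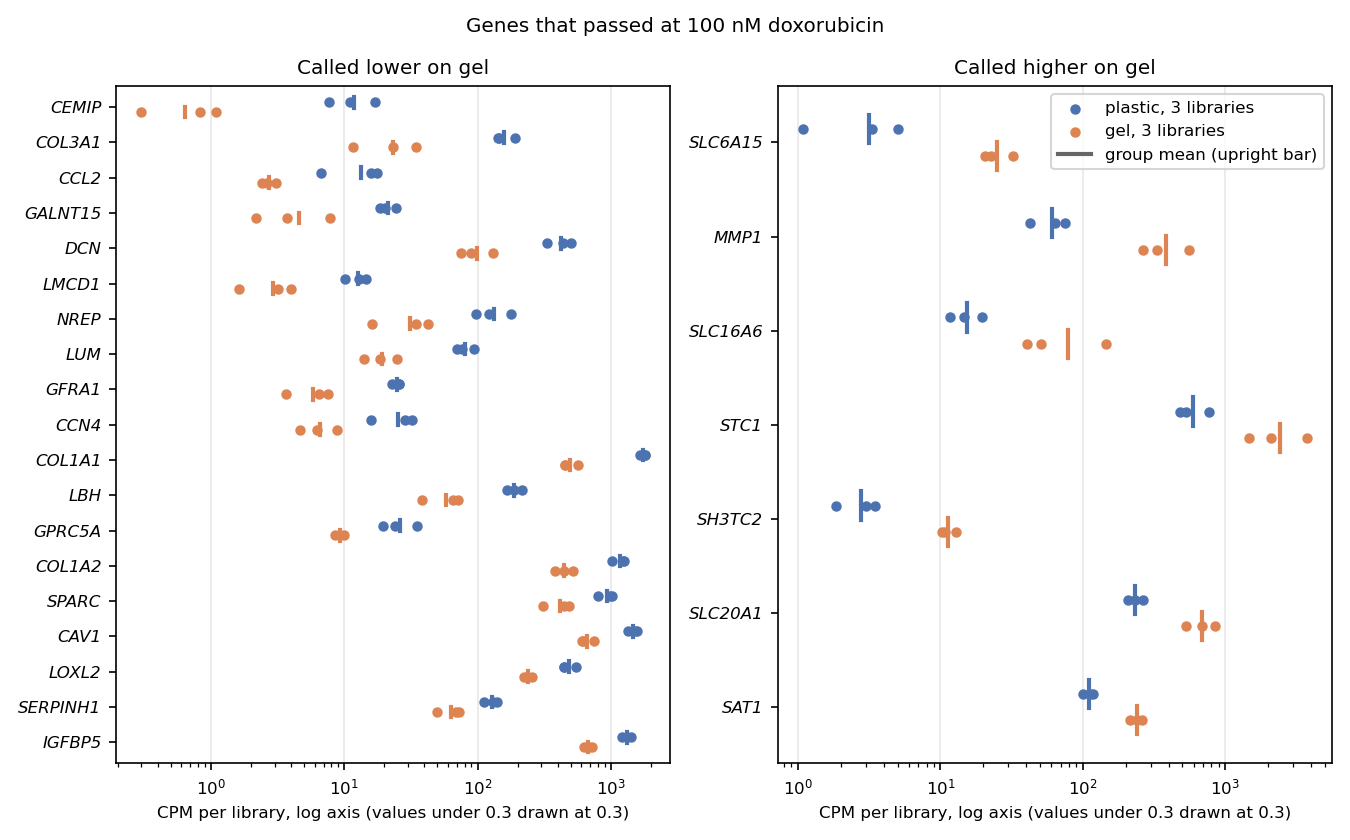
The CPM of every library at 100 nM is shown on a log axis for the 19 genes called lower on gel (left) and the 7 called higher that have a symbol (right), plastic in blue, gel in orange, with upright bars at group means. In each row the 3 gel points lie on one side of the 3 plastic points, and SLC16A6 and STC1 show the wide spread of their gel libraries.

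STC1, a secreted glycoprotein that dampens the release of insulin-like growth factors by blocking the protease pappalysin, read 530, 482 and 774 CPM on plastic and 3744, 1481 and 2099 on gel. The groups were apart, with a log2 change of 2.04 ± 0.30 and an adjusted p of 0.0131, and without gel replicate 1 the change was 1.59. It was not called without plastic replicate 1 (adjusted p 0.0876) or without plastic replicate 2 (adjusted p 0.0927). IGFBP5 (chr2:216672105-216695525, minus strand), which binds insulin-like growth factors and sits in matrix, read 1418, 1217 and 1324 CPM on plastic against 681, 720 and 628 on gel. Both groups were tight, with a log2 change of -0.96 ± 0.16 and an adjusted p of 0.0208. Of 12 tested genes of this axis, 1 rose, 1 fell and 9 were below 0, with a median of -0.45.

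CCL2 (chr17:34255218-34257203, plus strand), the chemokine that draws monocytes, was the one chemokine on the lists to pass the test, and it fell. It read 17.5, 15.8 and 6.65 CPM on plastic and 3.08, 2.61 and 2.42 on gel. The 3 gel libraries were nearly equal and plastic replicate 3 was the nearest to them, with a log2 change of -2.29 ± 0.40 and an adjusted p of 0.0342. Of 9 tested CC chemokines and other cytokines 1 fell and 0 rose, with a median of -0.16.

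The interleukins and CXC chemokines of the secretory phenotype had 8 of 19 listed members tested and 0 called, with a median log2 change of 2.26. That median was 0.39 without gel replicate 1, the library in which 5 of the 8 were highest. IL1B, a driver of inflammatory secretion, read 0.801, 0.62 and 2.06 CPM on plastic and 125, 3.3 and 7.13 on gel. The groups did not overlap, but gel replicate 1 was far above its own group, and the log2 change of 5.26 ± 1.32 (adjusted p 0.191) became 2.15 without it. CXCL8, which attracts neutrophils, read 9.61, 1.24 and 12.98 CPM on plastic against 213, 6.6 and 17.0 on gel, so the groups overlapped (adjusted p 0.489). Its log2 change of 3.30 became 0.56 without gel replicate 1. CXCL5, a related chemokine, was at 178 CPM in that library and between 0.929 and 2.85 in the other 5, and its log2 change of 4.90 reversed to -0.71 without it. IL6 was too low to be tested, at 1.87, 1.55 and 2.22 CPM on plastic and 12.3, 1.79 and 1.57 on gel. At 250 nM all 8 tested members of the list were above 0, with a median log2 change of 1.80, and none was called. At that dose IL1B (19.2 CPM) and CXCL5 (11.9 CPM) were also highest in gel replicate 1, and both overlapped between the substrates.

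Genes of the NF-κB pathway, transcription factors behind much of this inflammatory program, were high in the same library. Of 21 tested subunits and feedback genes 0 were called, 16 were highest in gel replicate 1 (76.2%, against 22.4% of all tested genes), and the median log2 change of 0.15 became -0.32 without it. PTGS2, the inducible cyclooxygenase, read 9.74, 7.28 and 7.28 CPM on plastic against 122, 10.0 and 15.4 on gel. It did not overlap, with an adjusted p of 0.288. Of the 8 genes called higher, 6 were also highest in gel replicate 1. Without that library 6 of the genes called lower were still called and 13 were not, so calls were lost in both directions. Of the 8 called higher, 3 were still called, MMP1, STC1 and SLC20A1. The other 5 were not. Their adjusted p-values were 0.0634 for SLC16A6 (log2 change 1.58), 0.0758 for SH3TC2, 0.0825 for SLC6A15, 0.087 for SAT1 and 0.24 for the noncoding RNA. The log2 change of SH3TC2 was 2.01 with all libraries and 2.07 without gel replicate 1.

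Of 26 tested secreted growth factors 0 were called, 14 were above 0 and 12 below, and the median was 0.14. In 8 of them gel was higher without overlap and in 3 it was lower, 42.3% together against 19.0% of all tested genes. The 4 of lowest p, none of which passed the test, encode ligands of the epidermal growth factor receptor family, secreted signals for growth and repair. HBEGF read 6.67, 12.1 and 15.99 CPM on plastic and 24.3, 26.1 and 27.9 on gel (adjusted p 0.132). AREG, the gene of amphiregulin, read 30.0, 7.74 and 16.1 against 107, 54.3 and 73.2 CPM (adjusted p 0.191). EREG, of epiregulin, read 23.8, 10.4 and 28.7 against 151, 41.9 and 60.3 CPM (adjusted p 0.278). NRG1, of neuregulin, read 47.4, 35.5 and 28.0 against 218, 58.6 and 63.5 CPM (adjusted p 0.243). In AREG, EREG and NRG1 the highest library was again gel replicate 1.

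**Figure D3:**
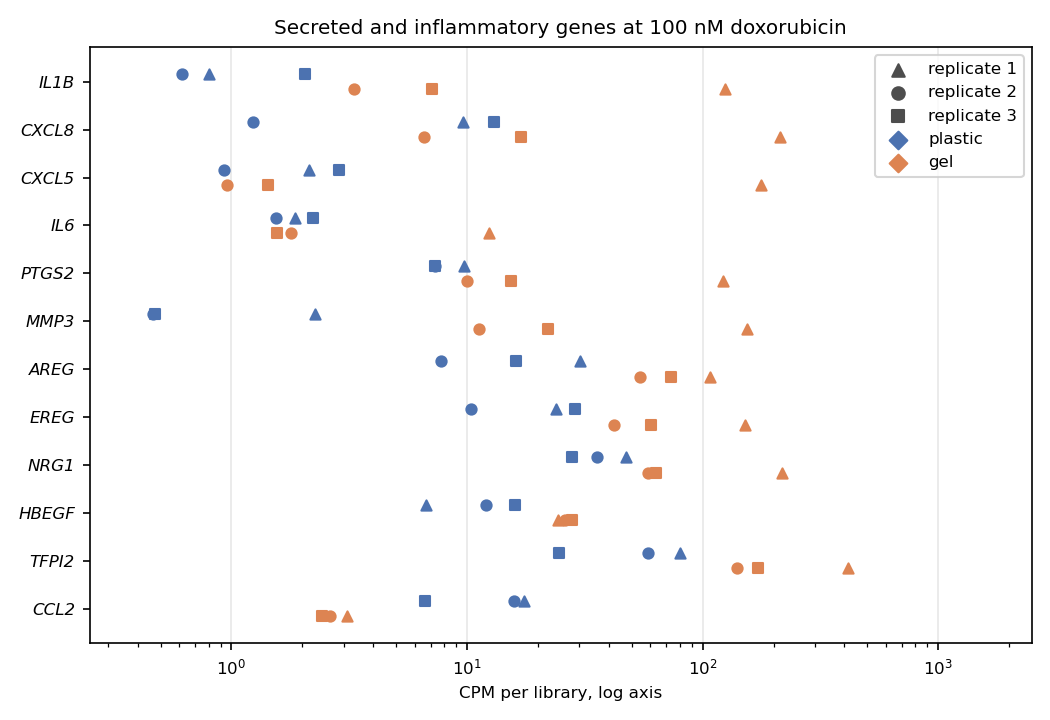
The CPM of each 100 nM library is shown on a log axis for 12 secreted and inflammatory genes, with plastic in blue, gel in orange and the replicate number given by the marker. Gel replicate 1, the orange triangle, lies at 125 CPM for IL1B and 178 CPM for CXCL5 while the other gel libraries lie much closer to plastic, and CCL2 is the gene with gel below plastic.

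CAV1 (chr7:116524785-116561184, plus strand), the scaffold protein of caveolae, read 1338, 1562 and 1523 CPM on plastic and 619, 745 and 609 on gel. The groups were tight and apart, with a log2 change of -1.17 ± 0.16 and an adjusted p of 0.011. Its partner CAV2 also did not overlap (269 to 364 CPM against 157 to 231) at an adjusted p of 0.21. The list of caveolae and membrane mechanics genes had 1 of 13 called, with a median of -0.20. PIEZO1, a stretch-activated channel, read 18.7 to 29.5 CPM on plastic and 11.4 to 17.7 on gel, which did not overlap, and had an adjusted p of 0.432. GJA1, the main gap junction gene of fibroblasts, read 164, 146 and 135 CPM against 94.7, 60.9 and 53.9, without overlap and with an adjusted p of 0.0732. ITGA2, a collagen-binding integrin chain, was higher on gel in all libraries (199.6 to 300.5 CPM against 428 to 699), with an adjusted p of 0.106.

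Of 36 tested contractile and SRF target genes 0 were called, 30 were below 0 and the median was -0.24. Gel replicate 1 was the lowest library in 22 of the 36, against 2787 of all 12329 tested genes. ACTA2, the smooth muscle actin of myofibroblasts, read 207, 279 and 143 CPM on plastic and 33.2, 97.5 and 99.0 on gel, without overlap (log2 change -1.45, adjusted p 0.143). CNN1, calponin, read 123, 96.6 and 65.1 CPM against 34.3, 55.3 and 58.0, also apart, with an adjusted p of 0.213. LMCD1 (chr3:8501707-8574673, plus strand), a LIM-domain regulator of transcription, did pass the test. It read 14.7, 13.01 and 10.1 CPM on plastic against 1.63, 3.16 and 3.99 on gel, a log2 change of -2.08 ± 0.34 with an adjusted p of 0.0208.

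Targets of YAP and TAZ, coactivators that enter the nucleus of cells on stiff supports, had 0 of 29 called and 21 below 0, with a median of -0.30. CCN1, a secreted matricellular target, read 2552, 671 and 774 CPM on plastic and 208, 618 and 409 on gel. The groups were apart, but plastic replicate 1 was far above the other 2 of its group, and the log2 change of -1.69 (adjusted p 0.265) became -0.80 without it. CCN2, connective tissue growth factor, overlapped (354 to 932 CPM against 214 to 393) and its change of -0.78 became -0.16 without plastic replicate 1. ANKRD1 ran from 10.3 to 58.5 CPM on plastic and from 2.00 to 75.9 on gel, with no direction that held across settings. PRSS23, a secreted protease, was apart (369 to 430 CPM against 123 to 265) at an adjusted p of 0.131.

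Of 22 tested genes of TGF-β signalling, the main inducer of collagen in fibroblasts, 0 were called and the median was 0.03. TGFB2, a ligand, read 16.6, 15.6 and 14.2 CPM on plastic and 7.80, 6.74 and 8.55 on gel, apart with an adjusted p of 0.219. SMAD7 and PMEPA1, feedback inhibitors that the pathway itself induces, were higher on gel in all libraries. SMAD7 read 17.4, 15.5 and 12.8 CPM against 29.9, 31.6 and 29.8 (adjusted p 0.0967), and PMEPA1 read 15.2, 14.9 and 16.6 against 38.8, 23.1 and 32.9 (adjusted p 0.13). NREP, a small protein linked to TGF-β and myofibroblasts, was called. Its levels were 121, 178 and 97.2 CPM on plastic and 16.1, 42.6 and 34.8 on gel, a log2 change of -2.08 ± 0.38 with an adjusted p of 0.045, at a locus that an antisense gene overlaps.

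A further 3 genes called lower act in receptors or transcription. LBH (chr2:30231369-30323730, plus strand), a transcription regulator of limb and heart development, read 214, 188 and 166 CPM on plastic and 38.5, 71.1 and 65.2 on gel. It fell by 1.70 ± 0.23 on the log2 scale, with an adjusted p of 0.00665. GFRA1 (chr10:116056925-116273467, minus strand), the receptor that binds the neurotrophic factor GDNF, read 25.6, 25.6 and 23.0 CPM against 3.63, 7.56 and 6.42, a log2 change of -2.06 ± 0.35 with an adjusted p of 0.024. GPRC5A, an orphan receptor induced by retinoic acid, read 19.5, 23.9 and 35.3 CPM against 9.98, 9.35 and 8.55, a log2 change of -1.49 ± 0.27 with an adjusted p of 0.0394. In all 3 genes the gel values lay below every plastic value.

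Apart from MMP1 and STC1, the genes called higher were 3 carriers, an enzyme of polyamine breakdown, SH3TC2 and a long noncoding RNA without a symbol. SLC20A1 (chr2:112645857-112663827, plus strand), a sodium-phosphate carrier, read 233, 263 and 207 CPM on plastic and 535, 686 and 848 on gel. Its log2 change was 1.56 ± 0.24 with an adjusted p of 0.0208. SLC6A15 (chr12:84859488-84913615, minus strand), a carrier of branched-chain amino acids and proline, rose from 5.07, 1.08 and 3.33 to 32.3, 20.5 and 22.7 CPM, a log2 change of 2.96 ± 0.48 with an adjusted p of 0.0208. SLC16A6, a monocarboxylate carrier, read 19.8, 11.6 and 14.6 CPM against 146, 40.7 and 50.9 (log2 change 2.36 ± 0.41, adjusted p 0.0376), and a gene on the other strand, ARSG, overlaps it. SAT1 (chrX:23783173-23786226, plus strand), which acetylates spermidine and spermine for export, read 113, 100.4 and 118 CPM against 261, 215 and 240, a log2 change of 1.11 ± 0.18 with an adjusted p of 0.0208. SH3TC2, known for its part in endosome recycling, read 3.47, 1.86 and 3.01 CPM against 10.3, 12.9 and 10.7 (log2 change 2.01 ± 0.34, adjusted p 0.0224). The groups were apart in each of these 5 genes. The other 22 of 24 tested amino acid and monocarboxylate carriers were not called, and the list median was -0.15. The log2 change of the noncoding RNA, 2.86, was 2.08 without gel replicate 1 with an adjusted p of 0.24.

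Just outside the threshold were genes that did not overlap but were not called, of which the 10 of lowest p in each direction are given here. On the higher side they were MMP3, SMAD7, ITGA2 and TFPI2, described above, with 6 more. MT-ND2, a mitochondrially encoded subunit of respiratory complex I, read 1469, 1392 and 1639 CPM on plastic and 2417, 2673 and 2716 on gel (adjusted p 0.0955). Of 13 tested mitochondrially encoded genes 0 were called, 8 were above 0 and 5 below, and the median log2 change was 0.07. In 2 of the 13 (15.4%, against 19.0% of all tested genes) the groups did not overlap. SLC25A37, the mitochondrial iron importer mitoferrin, read 28.7, 25.2 and 32.5 CPM against 101, 47.4 and 64.0 (adjusted p 0.0967). CNIH3, PCDH9, TRPS1 and JARID2 had log2 changes of 1.13, 0.88, 1.19 and 1.02 with adjusted p-values of 0.0967 to 0.106. On the lower side they were POSTN and GJA1 with 8 more. MGARP, a mitochondrial protein, was the nearest to the threshold, at 11.7, 9.29 and 11.1 CPM on plastic and 0.726, 2.06 and 1.43 on gel (log2 change -2.88, adjusted p 0.0545). FSTL1, a secreted glycoprotein of the SPARC family, read 1118, 1129 and 814 CPM against 470, 566 and 550.5 (adjusted p 0.0915). CTSC, a lysosomal protease, and BST1, an ectoenzyme of the cell surface, had log2 changes of -1.18 and -1.68. TMEM65, CERKL, EPB41L2 and HEG1 had log2 changes of -1.03, -1.67, -1.08 and -1.05, with adjusted p-values of 0.0967 to 0.109. Other tested genes overlap the loci of MGARP (NDUFC1, 85.5 CPM), CNIH3 (WDR26, 75.8 CPM) and BST1 (FAM200B, 23.9 CPM).

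Upstream sequence was looked up for the called genes in a RefSeq table for GRCh38.p14, which held 13 of the 27, 10 lower and 3 higher. The 250 bases before the start are shown for 3 called genes whose window lay wholly outside the gene in GENCODE 29. They are written 5′ to 3′ on the gene's strand, as context for genes that moved together. The window was not the only condition for showing a gene, so the 3 are examples. Capitals mark the motifs searched on both strands: AP-1 (TGANTCA), TEAD (CATTCC), SMAD (CAGACA), the CCAAT box (CCAAT), the TATA box (TATAAA) and the SRF box CArG. No marked motif overlaps another. The windows are chr2:216695550-216695799 (minus strand) for IGFBP5 and chr10:116274706-116274955 (minus strand) for GFRA1, both lower on gel, and chrX:23782923-23783172 (plus strand) for SAT1, higher on gel.
IGFBP5: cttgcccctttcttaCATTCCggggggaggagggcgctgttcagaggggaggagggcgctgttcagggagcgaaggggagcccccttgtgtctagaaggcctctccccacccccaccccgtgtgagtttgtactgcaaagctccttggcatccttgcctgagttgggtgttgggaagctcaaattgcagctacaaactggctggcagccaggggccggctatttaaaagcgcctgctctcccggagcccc
GFRA1: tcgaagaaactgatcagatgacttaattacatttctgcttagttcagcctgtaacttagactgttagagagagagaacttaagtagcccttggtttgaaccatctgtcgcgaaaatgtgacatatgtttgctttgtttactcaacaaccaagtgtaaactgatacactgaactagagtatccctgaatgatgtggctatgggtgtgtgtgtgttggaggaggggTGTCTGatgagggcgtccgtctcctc
SAT1: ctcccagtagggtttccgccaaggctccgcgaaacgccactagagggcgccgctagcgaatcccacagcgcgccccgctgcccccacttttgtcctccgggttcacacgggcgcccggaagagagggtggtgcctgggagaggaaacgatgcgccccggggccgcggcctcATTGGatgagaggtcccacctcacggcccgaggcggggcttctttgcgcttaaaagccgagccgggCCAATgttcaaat
The IGFBP5 window held 1 TEAD motif that began 235 bases before the start. In GFRA1 the capitals are a SMAD motif on the other strand, 26 bases before the start. In SAT1 they are CCAAT boxes on either strand, 79 and 13 bases before the start. Each start is that of the RefSeq table, which for GFRA1 lies upstream of the GENCODE 29 gene (chr10:116056925-116273467). A TEAD motif was in 2 of the 10 windows of genes called lower, against 9.26% of 9337 windows of tested genes and 11.9% of all 27305 windows. A SMAD motif was in 3 of the 10 against 9.47% and 13.6%, an AP-1 motif in 2 against 3.63% and 6.6%, a TATA box in 2 against 5.26% and 11.1%, a CCAAT box in 2 against 35.5% and 33.0%, and a CArG box in 0 against 1.02% and 1.14%. Of the 3 windows of genes called higher, 2 held a CCAAT box and 0 any of the other motifs. These matches describe letters in the window and no binding was measured.

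Cell-cycle genes were mostly lower on gel in direction, with no call. Of 35 tested genes of mitosis 0 passed, 34 were below 0, 14 were lower without overlap, and the median log2 change was -0.94. Of all tested genes, 51.1% were below 0 and 9.38% were lower without overlap. In 32 of the 35 the lowest library was gel replicate 3, and in 21 the highest was plastic replicate 3. Over all 12329 tested genes these were the lowest library in 1759 and the highest in 1852. The medians that follow leave out gel replicate 3 (the former) or plastic replicate 3 (the latter). The median was -0.64 without the former and -0.74 without the latter. Gel replicate 1 did not share the low level. The list's median there was 27.9 CPM, above 20.4 in plastic replicate 1 and below 39.0 and 39.1 in plastic replicates 2 and 3. Without gel replicate 1 the median log2 change was -1.33. KIF20A, a kinesin of cell division, read 17.8, 21.8 and 24.7 CPM on plastic against 7.98, 9.21 and 2.99 on gel, apart with an adjusted p of 0.134. Of 37 tested DNA replication genes 0 were called and 34 were below 0, with a median of -0.59. That median was -0.97 without gel replicate 1 and -0.40 without gel replicate 3, the lowest library in 24 of the 37. GINS1, part of the replicative helicase, read 13.9, 10.5 and 12.7 CPM against 5.26, 3.99 and 3.99 (adjusted p 0.162). Fewer dividing cells and less of these transcripts per cell cannot be told apart in bulk RNA.

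Markers of the senescent state did not separate the substrates at the threshold. CDKN1A, the p21 inhibitor of cyclin-dependent kinases, read 597, 493 and 421 CPM on plastic and 479, 664 and 788 on gel (log2 change 0.35, adjusted p 0.635). CDKN2A, the p16 locus, ran from 10.9 to 67.1 CPM on plastic and from 7.08 to 56.8 on gel, with a log2 change of -0.23 that became 0.30 without plastic replicate 1 and 0.25 without gel replicate 1. LMNB1, the lamin whose loss marks senescence, was lower in every gel library (37.3 to 78.3 CPM against 7.70 to 21.7), with a log2 change of -1.71 ± 0.59 and an adjusted p of 0.36. Of 29 tested p53 targets 0 were called, with a median of 0.13.

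Interferon-stimulated genes, which answer viral and self nucleic acid, had 0 of 23 tested members called (of 36 listed), 20 below 0 and a median of -0.83. The highest library was plastic replicate 2 in 15 of the 23 (65.2%, against 15% of all tested genes), and the median was -0.48 without it. IFIT1 read 4.804, 22.5 and 3.48 CPM on plastic and 0.726, 3.44 and 0.856 on gel. The highest gel library came just under the lowest plastic one, and the adjusted p was 0.306. Cholesterol synthesis genes leaned higher on gel, with 17 of 23 above 0 (6026 of 12329 over all tested genes), a median of 0.46 and 0 called. Of the 23, 9 were higher without overlap and 1 was lower, against 9.62% and 9.38% of all tested genes. HMGCS1, which makes the precursor of mevalonate, read 30.3, 31.8 and 31.0 CPM against 55.7, 46.0 and 62.9, with an adjusted p of 0.118. SQLE, the squalene epoxidase, read 42.8, 44.9 and 45.3 CPM against 62.2, 69.6 and 82.4, with an adjusted p of 0.15.

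**Figure D4:**
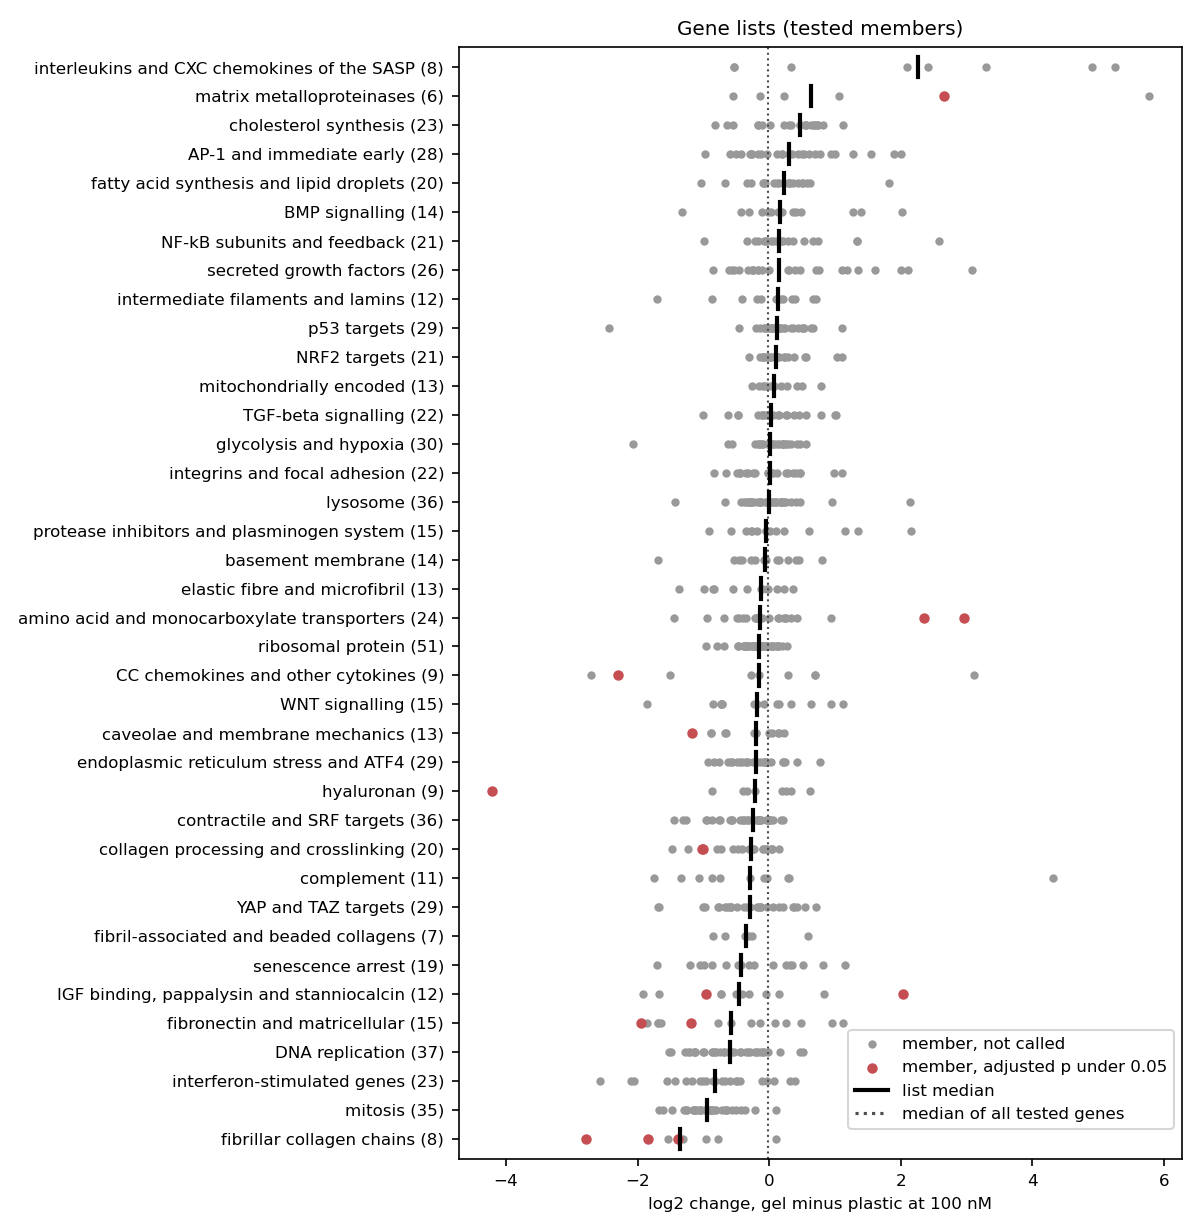
Each row is a gene list and each point 1 of its tested members (number in brackets), placed by its log2 change of gel relative to plastic at 100 nM, with called members in red, the list median as a black bar and the median of all tested genes as a dotted line. Lists with at least 6 tested members are shown, without the cell type markers. Their medians run from -1.35 for fibrillar collagens to 2.26 for interleukins and CXC chemokines, and the mitosis list, at -0.94, has no red point.

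The same 27 genes were examined in the 6 libraries at 250 nM, which share none with those at 100 nM. All 12 libraries were fitted together, so p-values at both doses rest on the same estimate of spread per gene. The p-values and the choice of the 27 genes are therefore not independent of the 250 nM libraries. The doses came as different library sets, since only the 250 nM file names mention molecular identifiers, so dose and library set cannot be told apart. The 250 nM libraries were also shallower, with 2229069 to 2730309 expected counts against 5887056 to 7351916 at 100 nM. The part of this depth in the results at 250 nM was not tested. At 250 nM 1 gene was called (0.00811%), COL1A1, at 1989, 2628 and 2423 CPM on plastic and 444.8, 615.2 and 729.5 on gel, with an adjusted p of 0.00219. Beside it, 1224 genes (9.93%) had an unadjusted p under 0.05 and 1857 (15.1%) did not overlap. All 19 genes called lower at 100 nM had a log2 change below 0 at 250 nM. Of these, 18 were lower without overlap, where 7.62% of all tested genes were, and the same 18 had an unadjusted p under 0.05, as did 4.49% of all tested genes in that direction. The exception was CCL2, whose plastic libraries read 2.07, 2.82 and 3.53 CPM and whose gel libraries read 2.31, 1.94 and 2.11. The median log2 change of the 19 was -1.95 at 100 nM and -1.14 at 250 nM. COL1A1, COL1A2 and IGFBP5 had a change at least as large at 250 nM, and the other 16 had a smaller one.

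All 8 genes called higher at 100 nM were above 0 at 250 nM as well, 5 of them without overlap, where 7.45% of tested genes were higher in that way, and the same 5 had an unadjusted p under 0.05, as did 5.43% of tested genes on that side. Their median log2 change was 2.20 at 100 nM and 0.83 at 250 nM, and each was smaller at the higher dose. MMP1 read 103.5, 143 and 163 CPM on plastic and 379, 364 and 334 on gel at 250 nM, a log2 change of 1.40 ± 0.29. SAT1, SH3TC2 and the noncoding RNA overlapped, and SH3TC2 had a log2 change of 0.25 ± 0.34. The 27 genes were chosen by their values at 100 nM, so the sizes at the doses are set side by side as a description. The difference between the effects at the doses, tested in edgeR across all genes, gave 0 calls (0%) and 771 genes (6.25%) with an unadjusted p under 0.05. DESeq2 and limma-voom also gave 0. Among the 27 the smallest adjusted p of the difference was 0.755, and the unadjusted p was under 0.05 in 7 of the 8 higher and 3 of the 19 lower genes (LUM, DCN and CCL2).

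**Figure D5:**
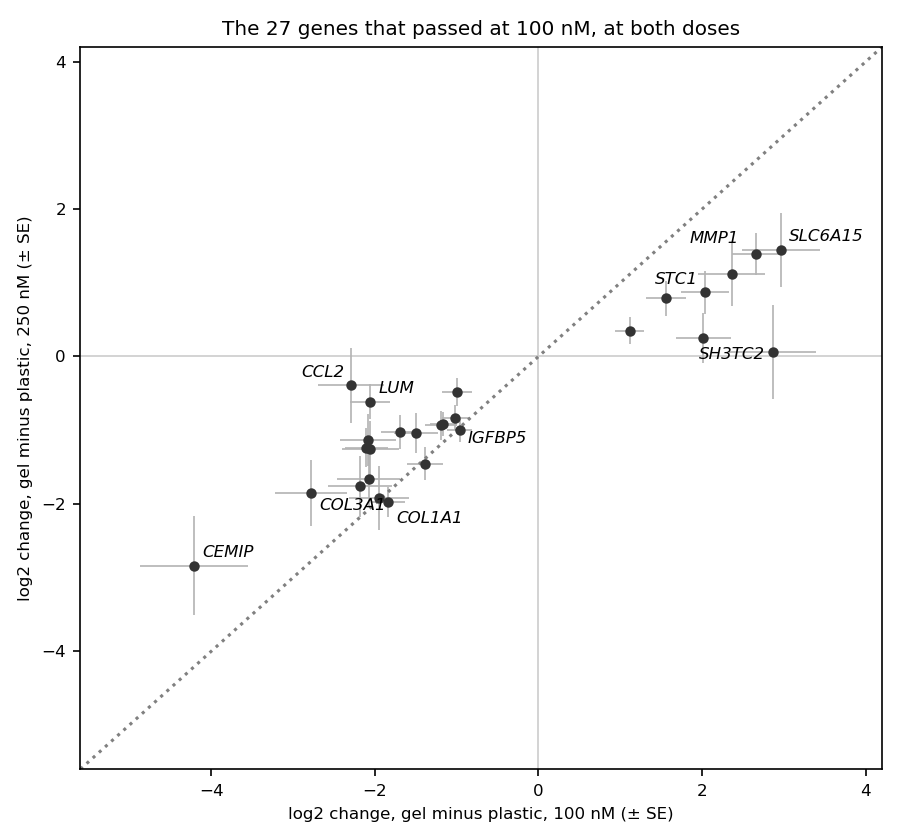
The log2 change of gel relative to plastic at 100 nM (horizontal) is set against that at 250 nM (vertical) for the 27 genes called at 100 nM. Bars are approximate standard errors derived from the edgeR test, and the line of equal change is dotted. All points lie to the lower left or upper right of 0, and most lie nearer to 0 on the vertical axis than on the horizontal one.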

How the data were processed

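The authors' deposited gene tables hold RSEM expected counts, fractional read numbers per gene with no scaling, per the file headers. They also hold TPM, deposited after RSEM had scaled it for transcript length and library total. Trimmomatic, STAR, RSEM, DESeq2 1.36.0 and build GRCh38 are listed in the submitters' processing notes. Other versions, the annotation release and how strand was handled are not given in the sources used. Of 61541 gene identifiers 61528 had a symbol in the supplied name table or GENCODE 29, and the latter gave coordinates.

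Expected counts were rounded and fitted in R 4.3.3 with edgeR 4.0.16 (filterByExpr with the 4 groups, TMM scaling, quasi-likelihood test) over all 12 libraries with 1 mean per group. Adjustment was by Benjamini and Hochberg over the 12329 genes tested. The spread was moderated with edgeR's robust option. This option was not in the written design. It was set after the fit without it had been seen, to match earlier processing of these data, and the fit without it called 28 genes, the 27 and MMP3. CPM are counts scaled to the effective library size, and folds and log2 changes are fitted. Errors of log2 changes are approximate standard errors, which edgeR's test does not report. Each was derived as the absolute log2 change divided by the square root of the test's F statistic. The share of changed genes recovered in simulated data for this comparison, with 12329 genes, was 0%, 8%, 66% and 84% at 1.5, 2, 4 and 8-fold, with 7 false calls.

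The comparison, the 44 gene lists and the rule for named genes were chosen with earlier results of these data known. Named were all called genes with a symbol, the 10 genes of lowest p in each direction that were not called, did not overlap and had a mean of at least 5 CPM, up to 4 members of a list by lowest p with a mean of at least 1 CPM, and core genes of senescence and mechanical sensing. Some named list members were left out for length. A core gene of the rule is not reported here. Lists are described by counts and medians and were not tested. Alternatives were other size factors, filters, DESeq2 1.42.0, limma-voom and limma-trend on log2(TPM + 1) (limma 3.58.1), a replicate block, libraries left out, and fits of the 6 libraries alone. With 3 libraries against 3 an exact permutation test cannot go below a p of 0.1, so none is given.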

Additional observations from a re-analysis of the deposited data

How the results depend on the processing

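At 100 nM the 27 calls were 27 with RLE or upper-quartile scaling, 28 with a mean of at least 5 CPM and 26 without ribosomal DNA loci and mitochondrial genes. They were 163 with DESeq2, 46 with limma-voom (25 of the 27 among them), 231 with no filter, 7 with limma-trend on TPM, 10 from the 6 libraries alone (also 10 when filtered on these 6) and 235 with DESeq2 on these 6. They were 121 without replicate 1 of gel at both doses. Leaving out 1 library gave 5 to 119. The fit without robust moderation, the 6 filtered alone and DESeq2 on the 6 were chosen after seeing the data. At 250 nM, calls numbered 2 with upper-quartile scaling, 97 with DESeq2, 3 with limma-voom, 3 with a mean of at least 5 CPM, 3 with limma-trend, 181 with no filter and 20 without replicate 1 of gel at both doses, and 1 to 7 when 1 library was left out. The difference between doses had 63 calls with no filter and 0 under every other setting run. The cause of these shifts was not tested.

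With the replicate number as a block, 10 genes were called at 100 nM, 9 of them among the 27, and MMP3 had an adjusted p of 0.0185. After each gene's group mean was subtracted, the deviations of same-numbered plastic and gel libraries correlated at -0.205, 0.141 and -0.236. The numbers were therefore not taken as pairs.

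Signs turned for 3 genes that were not called. CXCL5 was at -0.71 without gel replicate 1, alone or at both doses (range -0.71 to 5.48). ANKRD1 was at -0.52 with limma-voom, -0.48 with limma-trend, -0.34 with the block, -0.30 without plastic replicate 3 and -0.62 without gel replicate 3 (range -0.62 to 0.70). CDKN2A was at 0.30 without plastic replicate 1, and 0.25 without gel replicate 1, alone or at both doses (range -0.73 to 0.30). With a median standard error of 0.33 per log2 change, 3 libraries a group resolve only large changes.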
